A study of Drosophila melanogaster with 24 samples.

Results

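The response of whole female flies to diet was compared with and without induction of an RNAi transgene, on 24 arrays in 4 groups of 6 pools, which are all the arrays of the series. The groups were DR with RU486, AL with RU486, DR and AL, assigned by the array titles. Each array held the RNA of 1 pool of about 35 flies aged 13 days, and the DR flies had been on their food for 10 days. DR is dietary restriction. The labels neither spell out AL nor say how long the AL flies had been on their food. All groups, including those without the drug, carried 1 copy of Act5c-GS-Gal4 and 1 copy of P{GD3482}v8105, so AL flies without RU486, which the design text calls wild type, held both insertions too. No group given RU486 lacked the RNAi insertion, so the drug and the induced transgene cannot be told apart here, and neither can fewer cells of a type and less RNA per cell.

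Act5c-GS-Gal4 is a GeneSwitch driver: a Gal4 fusion protein made under a ubiquitous actin promoter that stays inactive until flies eat RU486. Once active, it drives a hairpin RNA that lowers the transcript of 1 gene. From general knowledge of this RNAi collection, and not from the labels, the insertion targets ACC, the acetyl-CoA carboxylase that makes the malonyl-CoA from which fatty acids are built. Dietary restriction lowers the intake of nutrients, yeast in most fly protocols, and is known for its effects on reproduction, metabolism and lifespan. In such a design an interaction is the diet difference with RU486 minus the diet difference without it. It is the same number as the RU486 difference on DR minus that on AL.

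The array holds 16637 transcripts, known by FlyBase transcript numbers, with 8 probes for nearly all. Values are the mean log2 brightness of a transcript's probes. A table of RefSeq genes gave 1 gene symbol for 16 transcripts, so most are known by number only, and the transcripts of ACC and of markers of the fly's sex and organs were not analysed here. A transcript was taken as above background on an array when it was brighter there than 95% of 511 means, each over 8 random probes. By this rule 12260 transcripts were above background on all 24 arrays. The distance of each transcript from its group mean was more spread in pool 1 of AL with RU486 (SD 0.365 log2) than in the other 5 pools of that group (0.110 to 0.140). Pool 3 of DR with RU486 came next, at 0.228, where the other 5 of its group lay at 0.119 to 0.159. Results are therefore also given without these 2 arrays.

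The interaction passed for 1084 of 16637 transcripts, or 6.52% (limma, adjusted p under 0.05). In 554 (3.33%) the DR minus AL difference was more positive with RU486, and in 530 (3.19%) more negative. The median size of the interaction was 0.454 log2 among these transcripts and 0.138 over all. At 1.5-fold or more 249 passed (1.5%), 56 of them positive and 193 negative, or 0.337% and 1.16% of all transcripts. Without the arrays that stand apart 1597 passed, and 965 of the 1084 were among them. Of the 1084, 985 were above background on all arrays and 4 on none. The interaction had the same sign on every probe of the transcript for 642 of them (59.2%), against 10.5% of all transcripts, and on fewer than 6 probes for 5. Choosing transcripts by this very difference favours such agreement, so these shares are a description.

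Most of these diet responses were weaker when RU486 was given. In 480 of the 1084 transcripts the diet test passed both with and without RU486 in the same direction, and the difference with RU486 was smaller; these are called shrunk. In 496 the diet test passed without RU486 and missed the threshold with it; these are called lost. A missed threshold does not show that DR and AL levels were equal with RU486, but the interaction test shows that the 2 diet differences were unequal. In 27 the response turned, with both tests passed in opposite directions. In 28 it had grown, and in 53 a diet difference passed with RU486 and not without it, which is called gained. No transcript past the interaction test missed both diet tests. The diet test passed for 8116 transcripts with RU486 (48.8%), 4074 higher on DR (24.5%) and 4042 lower (24.3%). It passed for 10860 without RU486 (65.3%), 4946 higher (29.7%) and 5914 lower (35.5%). With each array centred on its median these splits were 3350 higher and 6661 lower with RU486, and 4045 and 8529 without. Sets of random probes passed the diet test too, all as falls, 17.4% of 511 with RU486 and 64.4% without. The 5 classes use the values that make up the interaction, so their sizes carry no test of their own.

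**Figure D1:**
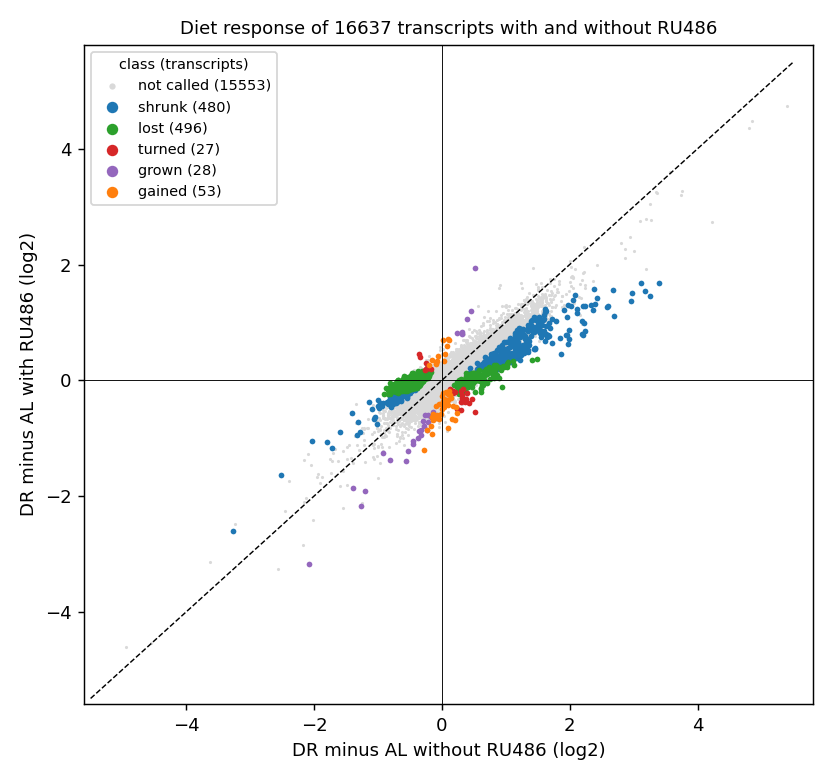
DR minus AL difference with RU486 (vertical axis, log2) against that without RU486 (horizontal axis, log2), 1 point per transcript, coloured by class, with the dashed line marking equal differences. The 480 shrunk transcripts lie between the dashed line and the horizontal axis, and the 28 grown ones lie beyond the line on the other side.

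Shrunk responses had, with RU486, a median of 0.447 of their log2 size without it. Of the 480 transcripts, 304 were raised on DR and 176 were lowered. Among the raised ones the median DR minus AL difference was 0.543 log2 with RU486 and 1.159 without. Among the lowered ones it was −0.244 with RU486 and −0.641 without. RU486 on DR had itself passed for 410 of the 480, against 13.7% of all transcripts, and RU486 on AL for 23, against 0.625%.

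FBtr0078619 had the most negative interaction among transcripts above background on all arrays. Its 6 pools of DR with RU486 ran from 10.20 to 11.45 log2 with a median of 10.86, and the pools of AL with RU486 from 9.12 to 9.35 with a median of 9.22. The DR pools ran from 11.81 to 12.36 with a median of 11.94, and the AL pools from 8.83 to 9.05 with a median of 8.90. Every DR pool with RU486 was thus below every DR pool without it, and every AL pool with RU486 was above every AL pool without it. The RU486 difference on AL, 0.31 ± 0.14 log2 (SE), nevertheless missed the threshold (limma adjusted p = 0.53). That SE uses a spread shared by all 4 groups. Their SDs were 0.438 log2 on DR with RU486, 0.251 on DR, 0.071 on AL with RU486 and 0.088 on AL. DR raised FBtr0078619 3.21-fold with RU486 and 8.70-fold without, an interaction of −1.44 ± 0.19 log2 (SE, limma adjusted p = 0.00065).

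FBtr0077334 followed the same pattern at lower levels. With RU486 its DR pools lay at 8.92 to 9.89 log2 (median 9.34) and its AL pools at 8.29 to 8.71 (median 8.65). Without RU486 its DR pools lay at 9.99 to 11.02 (median 10.41) and its AL pools at 8.03 to 8.44 (median 8.21). No DR pool with RU486 reached the lowest DR pool without it, whereas the AL groups overlapped. The rise on DR was 0.78 ± 0.16 log2 with RU486 and 2.21 ± 0.16 without (SE; interaction −1.43, adjusted p = 0.0019).

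Among lowered transcripts FBtr0087401 had the highest interaction. Its pools lay at 8.19 to 8.60 log2 on DR with RU486 (median 8.36) and at 9.09 to 9.67 on AL with RU486 (median 9.58). Without RU486 they lay at 7.79 to 8.18 on DR (median 7.95) and at 9.76 to 10.24 on AL (median 10.00). All 4 groups were separate from each other, with the 2 RU486 groups inside the 2 groups without the drug. RU486 raised FBtr0087401 by 0.44 ± 0.10 log2 on DR (adjusted p = 0.0064) and lowered it by 0.54 ± 0.10 on AL (SE, adjusted p = 0.0038). For FBtr0074028, the other lowered transcript chosen, the diet difference was −0.57 ± 0.13 log2 with RU486 and −1.40 ± 0.13 without, and pool 1 of AL with RU486 was far below its group at 8.99 log2. Its interaction was 0.83 with that pool and 0.641 without the 2 arrays that stand apart, and passed both times (adjusted p = 0.012 and 0.0011).

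Lost responses were mostly falls. Of the 496 transcripts, 352 were lowered on DR without RU486 and 144 raised. The lowered ones had a median diet difference of −0.046 log2 with RU486 and −0.470 without, and the raised ones 0.072 with RU486 and 0.526 without. RU486 on DR passed for 382 of the 496, against 13.7% of all transcripts, and RU486 on AL for 10, against 0.625%. Without the 2 arrays that stand apart 341 of the 496 were still lost, 106 counted as shrunk, 2 as turned and 47 no longer passed.

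FBtr0089607 was one of the raised ones. Its pools on DR with RU486 ran from 10.16 to 11.10 log2 (median 10.58) and those on AL with RU486 from 10.58 to 10.96 (median 10.73). Its DR pools ran from 11.27 to 11.94 (median 11.49) and its AL pools from 10.45 to 10.80 (median 10.61). The other groups overlapped each other, and the DR pools without RU486 stood above all of them. The diet difference was −0.12 ± 0.12 log2 with RU486 (adjusted p = 0.44) and 0.93 ± 0.12 without (SE, adjusted p = 4.55e-07), with an interaction of −1.05 ± 0.18 (adjusted p = 0.0025).

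FBtr0087904 gave the mirror image. Its pools on DR with RU486 ran from 10.06 to 10.46 log2 (median 10.22) and those on AL with RU486 from 9.86 to 10.51 (median 10.35). Its DR pools ran from 9.47 to 9.91 (median 9.84) and its AL pools from 10.34 to 10.84 (median 10.61). All DR pools with RU486 were above all DR pools without it. The interaction was 0.77 ± 0.14 log2 (SE, adjusted p = 0.0047). For FBtr0087789 and FBtr0080215, also in this class, pool 1 of AL with RU486 lay outside its group at 11.15 and 9.15 log2. Without the 2 arrays that stand apart their interactions were −0.767 and 0.553 log2, against −1.13 and 0.75 with them, and both still passed. Both then counted as shrunk, with diet differences with RU486 of 0.726 and −0.323 log2, against 0.36 and −0.13 over all arrays. The call of FBtr0080215 was lost with medians over probes (adjusted p = 0.098).

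Turned responses were few: 19 transcripts were raised on DR without RU486 and lowered with it, and 8 did the reverse. Without the 2 arrays that stand apart 12 of these 27 were still turned, 13 counted as lost and 2 no longer passed. FBtr0084455 had the smallest adjusted p of the 4 named here. On DR with RU486 its pools ran from 11.41 to 11.80 log2 (median 11.53), and on AL with RU486 from 11.99 to 12.20 (median 12.11). On DR without the drug they ran from 12.19 to 12.60 (median 12.26), and on AL from 11.83 to 12.18 (median 12.01). With RU486 every DR pool was below every AL pool, and without it every DR pool was above every AL pool. The diet difference was −0.52 ± 0.08 log2 with RU486 (adjusted p = 2.95e-06) and 0.30 ± 0.08 without (SE, adjusted p = 0.0011), and the interaction was −0.83 ± 0.11 (adjusted p = 0.00065). FBtr0112487 turned the same way, at −0.55 log2 with RU486 and 0.52 without.

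In the other direction, FBtr0087455 was raised on DR by 0.46 ± 0.10 log2 with RU486 and lowered by 0.36 ± 0.10 without it (SE; adjusted p = 0.00053 and 0.0030). With medians over probes the difference without RU486 was −0.293 log2 (limma adjusted p = 0.052), and the response counted as gained. On AL all 6 pools of FBtr0087455 with the drug (9.24 to 10.06 log2) were below all 6 without it (10.18 to 10.49), while the DR groups overlapped. The RU486 difference was −0.57 log2 on AL (adjusted p = 0.0025) and 0.24 on DR (adjusted p = 0.10). The sizes of these 2 differences were not compared by a test. FBtr0076885 also turned in this direction, at 0.30 and −0.26 log2, and its interaction call was lost with medians over probes (adjusted p = 0.069). Without the 2 arrays that stand apart its difference with RU486 was 0.175 log2 (adjusted p = 0.055), and it counted as lost.

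Grown responses were mainly falls, with 22 of the 28 transcripts lowered on DR. The 22 had a median diet difference of −0.974 log2 with RU486 and −0.365 without. FBtr0082225 fell on DR by 1.39 ± 0.09 log2 with RU486 and by 0.56 ± 0.09 without (SE; interaction −0.83, adjusted p = 0.0019). Its pools ran from 8.28 to 8.64 log2 on DR with RU486 and from 9.62 to 10.13 on AL with RU486, against 8.68 to 9.18 on DR and 9.29 to 9.65 on AL. Every DR pool with RU486 was below every DR pool without it, while the AL groups overlapped at their edge. FBtr0088466 had diet differences of −1.92 log2 with RU486 and −1.21 without, with an interaction of −0.71, a call that was lost in 5 of 32 alternatives (adjusted p from 0.013 to 0.078).

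FBtr0070490 had the highest interaction of the rises that grew, among transcripts above background on all arrays. Its pools ran from 10.61 to 11.19 log2 on DR with RU486 (median 10.96) and from 9.57 to 9.83 on AL with RU486 (median 9.75). They ran from 8.71 to 9.03 on DR (median 8.92) and from 8.37 to 8.49 on AL (median 8.47). All 4 groups were separate. DR raised FBtr0070490 2.30-fold with RU486 and 1.38-fold without (interaction 0.74 ± 0.10 log2, SE, adjusted p = 0.00065). RU486 itself raised it on both diets, by 2.03 ± 0.07 log2 on DR and by 1.29 ± 0.07 on AL (SE; adjusted p = 3.27e-16 and 1.71e-11). After quantile normalization the interaction was 1.118 log2, and the diet difference without RU486 was 0.083 (adjusted p = 0.26), which made the response gained. FBtr0071403 reached its larger rise by another route. RU486 lowered it by 0.98 ± 0.14 log2 on AL (SE, adjusted p = 0.00019), while the RU486 difference on DR was −0.33 (adjusted p = 0.11). Its interaction of 0.66 (adjusted p = 0.041) missed the threshold in 19 of 32 alternatives.

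The 53 gained responses held 41 falls and 12 rises. The falls had a median diet difference of −0.454 log2 with RU486 and 0.034 without. FBtr0071560 was raised on DR by 0.69 ± 0.09 log2 with RU486, and its difference without RU486 was 0.02 ± 0.09 (SE; interaction adjusted p = 0.0047). All its pools on DR with RU486 (8.89 to 9.26 log2) were above every pool on AL with RU486 (8.39 to 8.56) and on DR (8.26 to 8.78). After quantile normalization its difference without RU486 was −0.352 log2 and that with it 0.412, both past the threshold, and the response counted as turned. FBtr0078099 had a like interaction of 0.62 log2 (adjusted p = 0.040), a call lost in 16 of 32 alternatives. FBtr0084286 fell by 1.21 ± 0.18 log2 with RU486, against a difference of −0.28 ± 0.18 without (SE). Its interaction was lost without pool 5 of DR (adjusted p = 0.056). Without pool 4 of AL, which lay at 9.79 log2, the difference without RU486 was −0.473 and passed (adjusted p = 0.0042), so that the response counted as grown, as it did in 3 other alternatives. FBtr0088259 fell by 0.82 log2 with RU486 and differed by 0.09 without. Both arrays that stand apart lay outside their groups for it, at 10.39 and 12.51 log2, and its interaction was −0.658 without them and −0.92 with them.

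**Figure D2:**
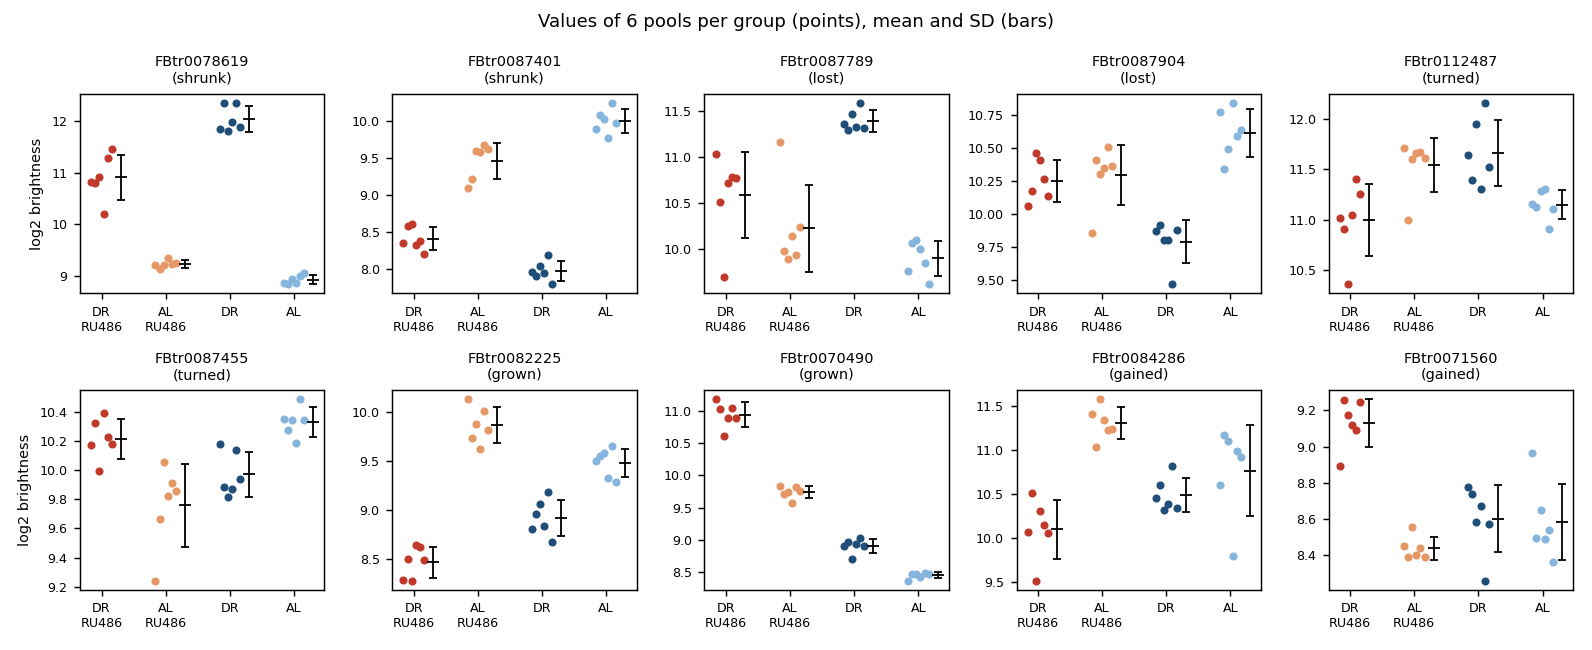
Log2 brightness of 10 transcripts, 2 of each class, in the 6 pools of DR with RU486, AL with RU486, DR and AL (points), with the mean and SD of each group (bars). For FBtr0078619 the DR pools with RU486 (10.20 to 11.45) lie below the DR pools (11.81 to 12.36), while for FBtr0070490 they lie above every other group.

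The next comparison asked how the interaction depends on the size and direction of the diet response. Transcripts were ordered by their average diet effect, the mean of the 2 diet differences, which passed for 11813 (71%), 5178 higher on DR (31.1%) and 6635 lower (39.9%). After centring on array medians the split was 4161 and 9269. In this balanced design its estimate is uncorrelated with those of the interaction and of the RU486 effects, if pools of all groups vary alike. That condition was not met in full: pool 1 of AL with RU486 was more spread (SD 0.365 log2), so some correlation can remain. Of the 1084 transcripts past the interaction test, 987 (91.1%) had an interaction opposite in sign to the average diet effect, against 70.8% of all transcripts. Of 479 that were raised on average 456 were opposed, and of 605 that were lowered 531. The signs are opposed whenever the diet difference is smaller in size with RU486 than without, and only then. These shares therefore restate the classes above and are no separate evidence.

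The share past the interaction test grew with the size of the response on both sides. Among raised transcripts it was 1.89% of 1429 transcripts with an average rise under 0.1 log2, 6.66% of 1577 at 0.25 to 0.5, 10.6% of 1769 at 0.5 to 1, 16.3% of 674 at 1 to 2, and 7 of 32 above 2. Among lowered transcripts it was 2.15% of 2413 with an average fall under 0.1 log2, 10.8% of 2986 at 0.25 to 0.5, 12.2% of 551 at 0.5 to 1, 18.2% of 66 at 1 to 2, and 3 of 14 above 2. These groups also differed in brightness. Above background on all arrays were 64% of rises under 0.1 log2, 91.4% at 1 to 2 and 40.6% above 2. For falls these shares were 50.3%, 92.4% and 64.3%. The part of brightness in the growth of the share was not tested. For raised transcripts the median RU486 difference on DR moved with the size, at −0.121 log2 in the group at 0.25 to 0.5, −0.192 at 0.5 to 1, −0.288 at 1 to 2 and −0.544 above 2. On AL the median RU486 difference in these groups lay between −0.024 and 0.013. In the group at 1 to 2 log2 the median rise was 1.047 with RU486 and 1.364 without, and 95.8% of transcripts were lower on DR with RU486 than on DR without it. Without the 2 arrays that stand apart these values were 1.082, 1.329 and 92.9%.

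In lowered transcripts the RU486 difference on DR did not keep growing with the size of the response above 1 log2. It opposed the fall in 82.2% of 2986 transcripts with an average fall of 0.25 to 0.5 log2, with a median of 0.128, and in 78.2% of 551 at 0.5 to 1. Among 66 transcripts with a fall of 1 to 2 log2 it did so in 57.6%, with a median of 0.012. Their median diet difference was −1.22 log2 with RU486 and −1.34 without. Of these 66, 12 passed the interaction test, 7 opposed to the fall and 5 in its direction. For rises of the same size the split among 110 that passed was 109 against 1. Falls above 2 log2 were 14, too few to read. Without the 2 arrays that stand apart the 57.6% was 56.2% and the median 0.028, and the split was 9 against 6. Smaller falls changed more. At 0.25 to 0.5 log2 the RU486 difference on DR then opposed 90.5% of falls and 78.7% of rises, against 82.2% and 84.2% over all arrays. At 0.5 to 1 log2 it opposed 82% of falls and 88.5% of rises. The interaction then passed for 17.7% of falls and 8.45% of rises at 0.25 to 0.5 log2, and for 22.4% and 13.2% at 0.5 to 1. The difference between raised and lowered transcripts was not tested, and the median brightness of the 2 groups at 1 to 2 log2 was 9.76 for rises and 10.04 for falls.

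**Figure D3:**
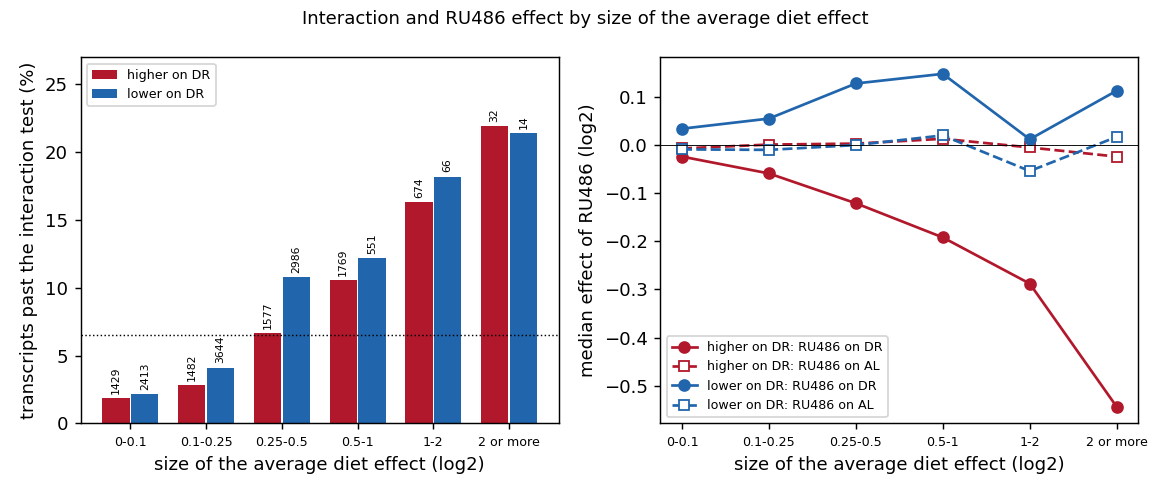
Left, the percentage of transcripts past the interaction test by size of the average diet effect (log2), for transcripts higher and lower on DR, with the number of transcripts above each bar and the share over all transcripts (6.52%) dotted. Right, the median RU486 difference (log2) in the same groups on DR (filled) and AL (open): on DR it reaches −0.544 for the strongest rises, while at falls of 1 to 2 log2 it is 0.012.

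The pools show the same pattern one by one. Over the 706 transcripts raised by 1 log2 or more on average, the median distance from the AL mean was 0.842 to 1.269 log2 in pools of DR with RU486 and −0.051 to 0.030 in pools of AL with RU486. It was 1.223 to 1.570 in pools of DR and −0.062 to 0.102 in pools of AL. The DR groups overlapped by 1 pool on each side, and the AL groups overlapped fully. Over the 2986 transcripts lowered by 0.25 to 0.5 log2 the distance was −0.324 to −0.258 on DR with RU486 and −0.514 to −0.318 on DR. Over the 80 transcripts lowered by 1 log2 or more it was −1.526 to −1.272 on DR with RU486 and −1.661 to −1.398 on DR, so that these pools overlapped broadly. The transcripts were chosen by their average diet effect in the same pools, which fixes the distance between the diets, so these are descriptions with no test.

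**Figure D4:**
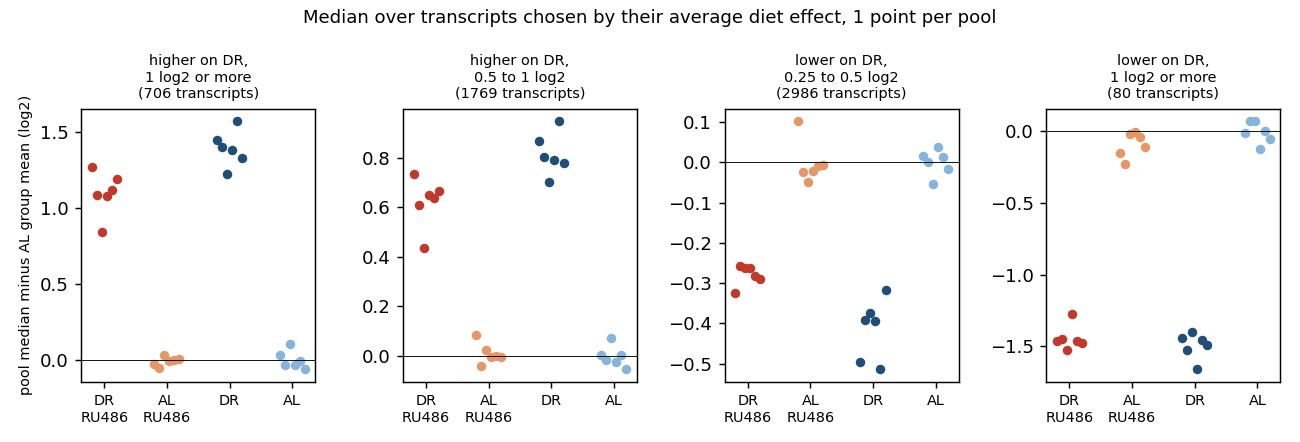
Median distance from the AL group mean (log2, vertical axis) over transcripts chosen by their average diet effect, 1 point per pool of DR with RU486, AL with RU486, DR and AL. For the 706 strongest rises the pools of DR with RU486 (0.842 to 1.269) lie mostly below those of DR (1.223 to 1.570), and for the 80 strongest falls both DR groups overlap.

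The same interaction can be read as a response to RU486 that differs between diets. Of the 1084 transcripts, 838 passed for RU486 on DR and not on AL, 46 on AL and not on DR, 8 on both and 192 on neither. The background share was 13.7% on DR and 0.625% on AL. The RU486 difference was larger in size on DR for 916 of the 1084 (84.5%), against 65.6% of all transcripts. Its median size was 0.305 log2 on DR and 0.139 on AL, against 0.107 and 0.065 over all transcripts. It had opposite signs on the 2 diets for 987 of them, against 55.9% of all transcripts. The pools of DR with RU486 and of DR did not overlap for 366 of the 1084 (33.8%), against 5.26% of all transcripts, and those of AL with RU486 and of AL for 87 (8.03%), against 1.39%. The interaction is made of these differences, so its calls favour them.

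Random probes also differed between the diets, and less so with RU486. Over the 511 random sets, the median DR minus AL difference was −0.095 log2 with RU486 and −0.168 without, a median interaction of 0.076. Fitted together with the transcripts, 2 random sets (0.391%) passed the interaction test, and 57 had an unadjusted p under 0.05. The diet test passed for 89 random sets with RU486 (17.4%) and for 329 without it (64.4%), all lower on DR. The average diet effect passed for 376 (73.6%), again all lower. Of the 3328 dimmest transcripts, with a mean under 7.64 log2, 32 (0.962%) passed, against 11.2% of 3327 at 8.88 to 10.26 log2. The part of this background shift in the falls of dim transcripts was not tested. The transcripts named above were above background on every array.

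None of the 16 transcripts with a gene symbol passed the interaction test, where 6.52% of all transcripts did, and 4 of the 16 had an unadjusted p under 0.05, where 24.4% of all did. Of these 16, 6 passed for diet with RU486, against 48.8% of all transcripts, and 10 without it, against 65.3%. These counts lie near the shares over all transcripts. Their interactions ran from −0.51 to 0.32 log2 with a median of −0.011, against 0.003 over all transcripts, and 11 of the 16 were under 0.15 in size. Of 169 genes in 15 lists of pathways and organs 13 could be named, in 7 lists.

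Among 4 named chromatin genes, HDAC3, a histone deacetylase that works with the SMRTER corepressor, came nearest to the threshold. Its pools ran from 10.37 to 10.78 log2 on DR with RU486 (median 10.65) and from 10.55 to 10.85 on AL with RU486 (median 10.71). They ran from 10.17 to 10.50 on DR (median 10.31) and from 10.58 to 10.93 on AL (median 10.73). Only the DR pools without RU486 stood apart from the AL pools of the same drug group. HDAC3 fell on DR by 0.41 log2 without RU486, and the difference with it was −0.09 ± 0.07 (SE, adjusted p = 0.32). The interaction was 0.32 ± 0.10, higher on 8 of 8 probes, with an adjusted p of 0.0502 that moved between 0.016 and 0.10 over 32 alternatives. SuUR, which limits the replication of heterochromatin in polytene cells, had an interaction of 0.08 ± 0.12 log2. For kis, a chromatin remodeller of the CHD family, it was −0.01 ± 0.08, and for His4r, a replacement histone H4, −0.17 ± 0.13. The interaction of His4r passed in 1 alternative, without pool 1 of AL with RU486 (adjusted p = 0.037).

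Of the 2 named genes of the membrane skeleton and basement membrane, alpha-Spec had the largest interaction in size among the 16. This spectrin chain forms the lattice under the cell membrane. Its pools lay at 10.19 to 11.11 log2 on DR with RU486 (median 10.90) and at 10.53 to 11.08 on AL with RU486 (median 10.62). They lay at 11.18 to 11.41 on DR (median 11.24) and at 10.43 to 10.82 on AL (median 10.65). Every DR pool with RU486 was below every DR pool without it, with pool 3, one of the arrays that stand apart, lowest. The interaction of alpha-Spec was −0.51 ± 0.17 log2 (SE, adjusted p = 0.065), and −0.304 without the 2 arrays (adjusted p = 0.070). It passed in 4 of 32 alternatives, with adjusted p from 0.032 to 0.12 over all of them. LanA, the laminin alpha chain, rose on DR by 0.47 ± 0.08 log2 with RU486 and by 0.72 ± 0.08 without (SE). Its interaction was −0.25 ± 0.11 (adjusted p = 0.16), so the 2 rises could not be told apart over all transcripts.

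Fatp1, a fatty acid transport protein and the only named member of the lipid list, had like rises in both drug groups. Its pools ran from 10.89 to 11.11 log2 on DR with RU486 and from 10.36 to 10.64 on AL with RU486, against 10.80 to 11.29 on DR and 10.29 to 10.73 on AL. The DR pools were above the AL pools in each drug group, and the RU486 groups overlapped on each diet. Its interaction was −0.06 ± 0.11 log2 (SE, adjusted p = 0.80), with a 95% interval of −0.278 to 0.168.

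None of the remaining symbols had an interaction over 0.21 log2 in size. Both GATOR2 subunits, which relay amino acid supply to TORC1, were among them: Wdr24 at 0.13 ± 0.14 log2 and mio at 0.02 ± 0.11 (SE). Wdr24 fell on DR by 0.50 log2 with RU486 and by 0.62 without. For sle, a nucleolar protein gene, the interaction was 0.09 ± 0.09 log2, and its falls were 0.32 with RU486 and 0.41 without. Uba1, the ubiquitin-activating enzyme, stood at −0.01 ± 0.08, and rdx, a substrate adaptor of a Cullin-3 ubiquitin ligase, at −0.06 ± 0.14. The phosphate transporter gene NaPi-III stood at 0.06 ± 0.11, fend at −0.14 ± 0.21, and CG31178, above background on no array, at −0.05 ± 0.08. CG16974 stood at 0.21 ± 0.07 log2 (adjusted p = 0.088) and passed in 1 of 32 alternatives. Scaling or probe summary turned the sign of several of these small values, as listed under the dependence on processing.

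**Figure D5:**
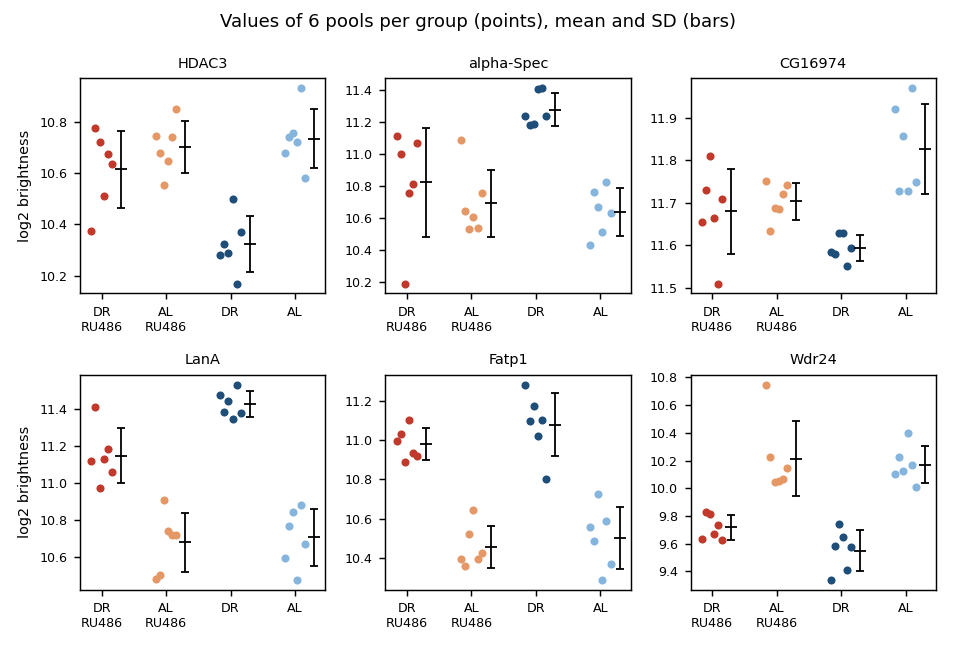
Log2 brightness of 6 transcripts with a gene symbol in the 6 pools of DR with RU486, AL with RU486, DR and AL (points), with the mean and SD of each group (bars). For HDAC3 the DR pools (10.17 to 10.50) lie below the AL pools, and for Fatp1 the DR pools lie above the AL pools in both drug groups.

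Single calls differed in how many fits they passed. Of the 1084 transcripts, 577 passed in each of the 24 fits that left out 1 array, and 395 passed in these and in 8 other fits on transcript values. The 395 held 177 shrunk, 169 lost, 18 turned, 13 grown and 18 gained responses, and 355 of them were opposed to the average diet effect. Of the 20 transcripts named by class, 14 kept their call in all 32 alternatives. The count of interaction calls depended on 3 single arrays by more than 1.5 times: it was 620 without pool 5 of DR, 1853 without pool 1 of AL with RU486 and 1696 without pool 1 of DR with RU486.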

How the data were processed

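RNA was amplified, labelled with Cy3 and hybridised to NimbleGen arrays, 1 pool per array; extraction, amplification and labelling were randomized over groups, per the labels' protocols. The authors deposited 1 value per probe, here read as log2 brightness from the range of 6.09 to 16.51; limma is named in the submitters' processing notes, without a version. The sources used here do not give the background correction, normalization, log base or slide. Of 137090 probes, 4091 random ones were left out of transcript values, which are means over probes. One mean per group was fitted over 24 arrays (limma 3.58.1, R 4.3.3, lmFit and eBayes) with Benjamini-Hochberg adjustment over 16637 transcripts at 0.05, and contrasts as named in the text. No filter was applied. SE comes from this fit, with 1 estimate of the spread per transcript shared by all 4 groups. Pools are separate samples per the labels. A p-value sets a difference between groups against the spread between pools, and the number of arrays limits the precision.

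Named transcripts were those above background on all 24 arrays with the 2 highest and 2 lowest interactions in each class, and all 16 with 1 symbol in a RefSeq table of assembly Release 6 (28 matched several and are not named). The background rule left out 99 interaction calls, which held the strongest interactions in both directions, −1.80 and 1.43 log2. Classes, lists, rules and alternatives were chosen with earlier results of these data known. Equal pool numbers were not used to pair the samples. Between pools of equal number, correlations of the deviations from group means ran from −0.312 to 0.251. Such correlations cannot show whether these pools were handled together. In simulated data with 200 of 16637 transcripts changed, the interaction test recovered 66 of 100 changes of 0.5 log2 and 96 of 100 of 1 log2, with 4 false calls. The changes were placed in DR with RU486 only. Simulated noise was normal, independent between transcripts and, for each transcript, equally spread over all arrays. The real arrays were not equally spread, so the 4 false calls give no error rate for them.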

Additional observations from a re-analysis of the deposited data

Results flagged for a closer look

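By the test of the interaction itself, 1084 transcripts had unequal diet differences in the drug groups. Among those named, the interaction was positive for FBtr0087401 (0.98 log2), FBtr0074028 (0.83), FBtr0087904 (0.77), FBtr0080215 (0.75), FBtr0087455 (0.81), FBtr0076885 (0.56), FBtr0070490 (0.74), FBtr0071403 (0.66), FBtr0071560 (0.68) and FBtr0078099 (0.62). It was negative for FBtr0078619 (−1.44), FBtr0077334 (−1.43), FBtr0087789 (−1.13), FBtr0089607 (−1.05), FBtr0112487 (−1.06), FBtr0084455 (−0.83), FBtr0082225 (−0.83), FBtr0088466 (−0.71), FBtr0084286 (−0.93) and FBtr0088259 (−0.92).

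A pool lay far from the other 5 of its group in 22 of 168 groups of values looked at, where chance flags about 1 in 20, and 15 of the 22 were pool 1 of AL with RU486. In that pool the SD of transcript deviations was 0.365 log2, and the median over transcripts lowered on DR was 0.103 (falls of 0.25 to 0.5 log2) and 0.203 (falls of 0.5 to 1). Its values were low for FBtr0074028 (8.99 log2), FBtr0087904 (9.86), FBtr0080215 (9.15), FBtr0076885 (9.67) and His4r (13.02). They were high for FBtr0087789 (11.15), FBtr0088259 (12.51), fend (11.73), mio (10.23), kis (12.76), sle (12.77) and Wdr24 (10.75). Without this pool alone the interaction was 0.65 log2 for FBtr0074028, 0.686 for FBtr0087904, 0.601 for FBtr0080215, 0.466 for FBtr0076885, −0.285 for His4r, −0.946 for FBtr0087789 and −0.760 for FBtr0088259. It was 0.020 for fend, 0.105 for mio, 0.052 for kis, 0.15 for sle and 0.234 for Wdr24.

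Pool 3 of DR with RU486 lay apart by its SD of 0.228 log2 and by a value of 10.39 for FBtr0088259, and pool 4 a median of −1.272 over transcripts lowered by 1 log2 or more. In AL with RU486, pool 2 lay at 11.00 log2 for FBtr0112487 and pool 3 at 8.56 for FBtr0071560. In DR, pool 5 lay at 9.47 for FBtr0087904, and in AL, pool 6 lay at 13.85 for His4r.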

How the results depend on the processing

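The counts of interaction calls and of the other contrasts stayed within 1.5 times under quantile normalization, centring on array medians, medians over probes, the filter on background, eBayes with trend and robust, and the replicate block, which gave 972 interaction calls. A like count could hide a change of members. With medians over probes the interaction passed for 1121 transcripts, and only 627 of the 1084 were among them. With array weights the interaction passed for 2281 transcripts, RU486 on AL for 342, and 1999 responses were shrunk or lost and 221 grown or gained, with 89% of calls opposed to the average diet effect. Without the 2 arrays that stand apart RU486 on AL passed for 159, and 141 responses were grown or gained; 786 were shrunk, 47 grown and 94 gained. Gained responses numbered 88 after quantile normalization and 83 with medians over probes, and with array weights 1164 were shrunk, 835 lost, 56 turned, 77 grown and 144 gained. With single probes tested, transcripts with at least 1 in 2 probes past the threshold in 1 direction numbered 170 for the interaction, 4692 for diet with RU486, 374 for RU486 on DR and 27 for RU486 on AL. Leaving out 1 array gave 620 to 1853 interaction calls, 548 to 1653 shrunk or lost, 50 to 156 grown or gained, 1093 to 3915 for RU486 on DR, 73 to 122 for RU486 on AL, 7650 to 8828 for diet with RU486, 10277 to 11657 for diet without it, 11498 to 12406 for the average diet effect, and 89.2% to 92.5% opposed. The lowest count of each of the first 4 came without pool 5 of DR and the highest without pool 1 of AL with RU486. RU486 on DR uses no array of AL with RU486. Without pool 1 of that group its differences were therefore unchanged, and only the shared estimate of the spread could differ. For most of the other changes the cause was not tested. The interactions of 11 symbols changed sign in 1 or more alternatives, none of them past the threshold on either side. Quantile normalization gave 0.066 for kis, 0.058 for rdx and 0.098 for Uba1, and centring 0.017 for kis and 0.012 for Uba1. Medians over probes gave −0.049 for SuUR, −0.035 for NaPi-III and for mio, 0.005 for kis, 0.109 for Fatp1, −0.018 for sle, 0.048 for rdx, 0.042 for CG31178 and −0.008 for Wdr24. Array weights gave 0.026 for fend, −0.026 for NaPi-III and 0.037 for kis, and leaving out the 2 arrays 0.110, −0.030 and 0.059. With 1 array left out these values ran from −0.216 to 0.020 for fend, −0.014 to 0.106 for NaPi-III, −0.016 to 0.105 for mio, −0.032 to 0.052 for kis and −0.047 to 0.012 for Uba1. Equal pool numbers were not taken as pairs, and the replicate block left 896 of the 1084 interaction calls. The alternatives for the average diet effect and the classes of single transcripts under each alternative were chosen after seeing the data.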

Other observations

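Some diet responses passed on only 1 side of the drug without a test of the difference behind them. The diet test passed without RU486 and not with it for 3883 transcripts, of which 496 (12.8%) also passed the interaction test. It passed with RU486 and not without it for 1139, of which 53 (4.65%) passed the interaction test. For the others, a response present in one drug group and absent in the other was not shown.

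Transcripts past the interaction test were spread unevenly over brightness. Among 3327 transcripts with a mean of 7.64 to 8.88 log2, 40 had a positive and 127 a negative interaction, while among 3327 at 10.26 to 11.28 log2, 199 were positive and 103 negative. The median average diet effect was 0.265 log2 in the dimmer group and −0.190 in the brighter one.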
